A study of Homo sapiens with 6 samples.

Results

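RAB GTPases are the largest branch of the RAS superfamily of small GTP-binding proteins, and their transcripts were followed here by symbol. Genes were taken from the deposited TPM table when the symbol was RAB, a number and at most a letter and a further digit, which leaves out regulators such as RAB3GAP1 or RAB11FIP1. That rule found 62 of the table's 17280 genes. Of these, 52 averaged 1 TPM or more across the 6 libraries and were tested. TPM is a share of transcripts that takes gene length into account, so levels of different genes can be set side by side, but the unit keeps no sequencing depth and no counting interval can be given. The libraries come from CAL-27, an established squamous carcinoma line of the human tongue, cultured as spheres, which float and are used to enrich stem-like cells. There were 3 libraries titled LF3 and 3 titled CON. LF3 is a small-molecule inhibitor of the contact between beta-catenin and TCF4, and the series design gives 24 h of exposure to it, whereas the treatment field of the same libraries names elesclomol-Cu, a copper-carrying compound, for 24 h. The CON libraries are labelled as normal controls, and the groups follow the titles, so LF3 stands throughout for the libraries so titled, whichever compound they received. All libraries share 1 cell line, and no label says that replicates were separate cultures, so the p-values rest on differences among libraries of a group that may be technical only.

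A RAB protein works as a switch on a membrane. An exchange factor loads it with GTP, the active form recruits effectors such as tethers and motor proteins, and a GTPase-activating protein returns it to the GDP form, which GDI then lifts off the membrane. Each member marks a step of vesicle traffic, so the family is described by route: between the endoplasmic reticulum (ER) and the Golgi, through endosomes and back to the surface, outward secretion, and autophagy and lysosomes. In epithelial tumours, RAB11, RAB25, RAB5 and RAB27 members are known for the traffic of integrins, growth factor receptors and exosomes.

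The tested comparison covers 12195 genes, fitted with limma on log2(TPM + 1), and a gene is called at a two-sided Benjamini-Hochberg adjusted p under 0.05 over all of them. Of all genes tested 85.5% were called, 53.2% higher and 32.3% lower in LF3, and the median log2 fold change of all genes was 0.24 as deposited and -0.0055 after median-ratio rescaling, in which a size factor per library aligns the bulk of the genes. Log2 fold changes are LF3 minus CON and are followed by ± their limma standard error, while TPM and percent means are followed by ± the SD of 3 libraries. Counts are given as deposited and after this rescaling. The epithelial character of the cells was checked with 10 squamous markers, of which 9 had a mean of at least 1 TPM and KRT14 averaged 0.612 TPM; their summed level was 1762 to 1801 TPM in LF3 and 1268 to 1294 TPM in CON. Its members went both ways: KRT5 averaged 454 TPM in LF3 and 102 TPM in CON, KRT17 58.8 TPM in LF3 and 200.01 TPM in CON, and KRT16 5.86 TPM in LF3 and 14.6 TPM in CON. Among other cell types, 6 fibroblast genes summed to 6.81 to 7.69 TPM in LF3 and 14.8 to 15.8 TPM in CON, with COL3A1 and DCN at or near 0. The 4 leukocyte genes measured summed to 2.04 to 2.72 TPM in LF3 and 1.42 to 2.21 TPM in CON, with PTPRC at or near 0. The 4 endothelial genes summed to 6.24 to 7.26 TPM in LF3 and 0.410 to 0.570 TPM in CON, nearly all of it CDH5 in LF3, while PECAM1 averaged 0.24 TPM over the 6 libraries and KDR was at or near 0. The part of these marker differences in the results was not tested. In bulk RNA, fewer cells of a kind and less RNA per cell cannot be told apart.

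The RAB genes split in direction. As deposited, 20 of the 52 tested members were higher and 24 lower in LF3, and 8 were not called, so 84.6% were called, next to 85.5% of all genes. The share of changed members was thus near the background. Members called higher made up 38.5% of those tested, against 53.2% of all genes, and members called lower 46.2%, against 32.3% of all genes. After rescaling there were 12 higher and 31 lower, or 23.1% and 59.6% of the members against 42.6% and 42.7% of all genes (82.7% of members and 85.3% of all genes called either way). Quantile normalization gave 14 higher and 30 lower, or 26.9% and 57.7% of the members against 43.9% and 41.4% of all genes (84.6% and 85.4% either way). The median log2 fold change of the members was -0.077 as deposited and -0.31 after rescaling. Under all 3 scalings (as deposited, rescaled and quantile-normalized) 12 members were called higher and 24 lower, beside 41.0% and 31.2% of all genes. The groups did not overlap in 43 of the 52 members (82.7%), against 86.2% of all genes tested.

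**Figure D1:**
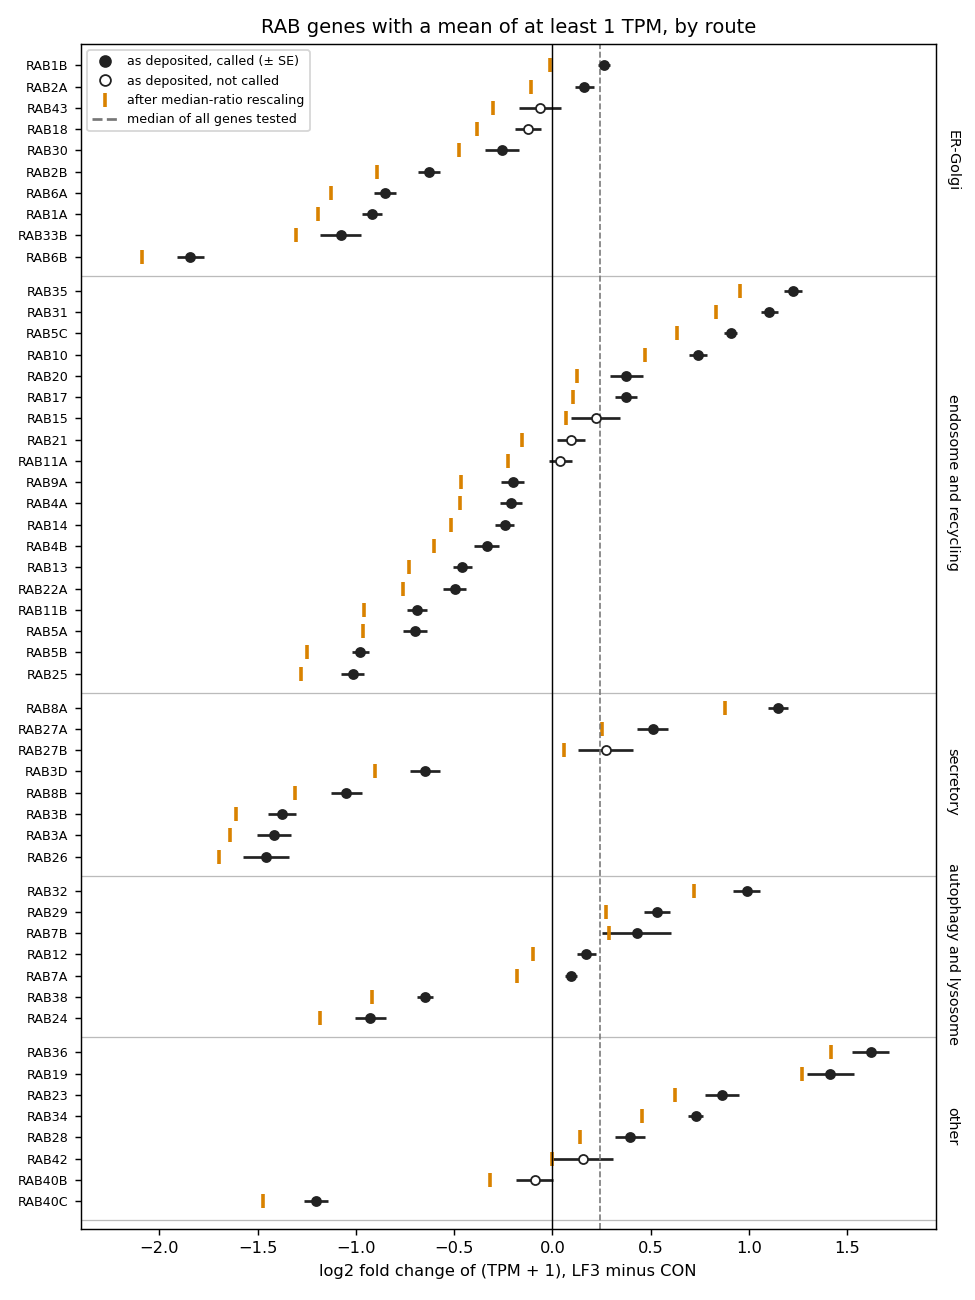
Log2 fold change of each of the 52 tested RAB genes, as LF3 minus CON of log2(TPM + 1), by route and ordered by size within it. Circles are values as deposited with limma standard errors from 3 libraries a group (filled where called), orange ticks are values after median-ratio rescaling, and the dashed line is the median of all genes tested at 0.24; values run from -1.84 for RAB6B to 1.62 for RAB36.

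Differences of at least 1 on the log2 scale were called in 13 members, 5 higher (RAB36, RAB19, RAB35, RAB8A and RAB31) and 8 lower (RAB6B, RAB26, RAB3A, RAB3B, RAB40C, RAB33B, RAB8B and RAB25), where 20.8% of all genes were called higher and 11.1% lower by this size. In each of the 13 the groups did not overlap, as in 86.2% of all genes tested. Each kept its call and direction under every alternative fit that tested it. The 13 were chosen by call and size, which favours both results, so neither is separate support. The family's summed level was 2928 to 3032 TPM in LF3 and 3003 to 3083 TPM in CON, and the groups overlapped. Its leading members changed places. RAB1B held 13.9 ± 0.270% of all RAB transcripts in LF3 and 11.4 ± 0.204% in CON, while RAB1A held 6.31 ± 0.148% in LF3 and 11.7 ± 0.627% in CON (SD, n = 3 each). The most abundant members in LF3 were RAB1B, RAB7A, RAB5C, RAB34 and RAB1A in that order, and in CON RAB1A, RAB1B, RAB7A, RAB6A and RAB5C.

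**Figure D2:**
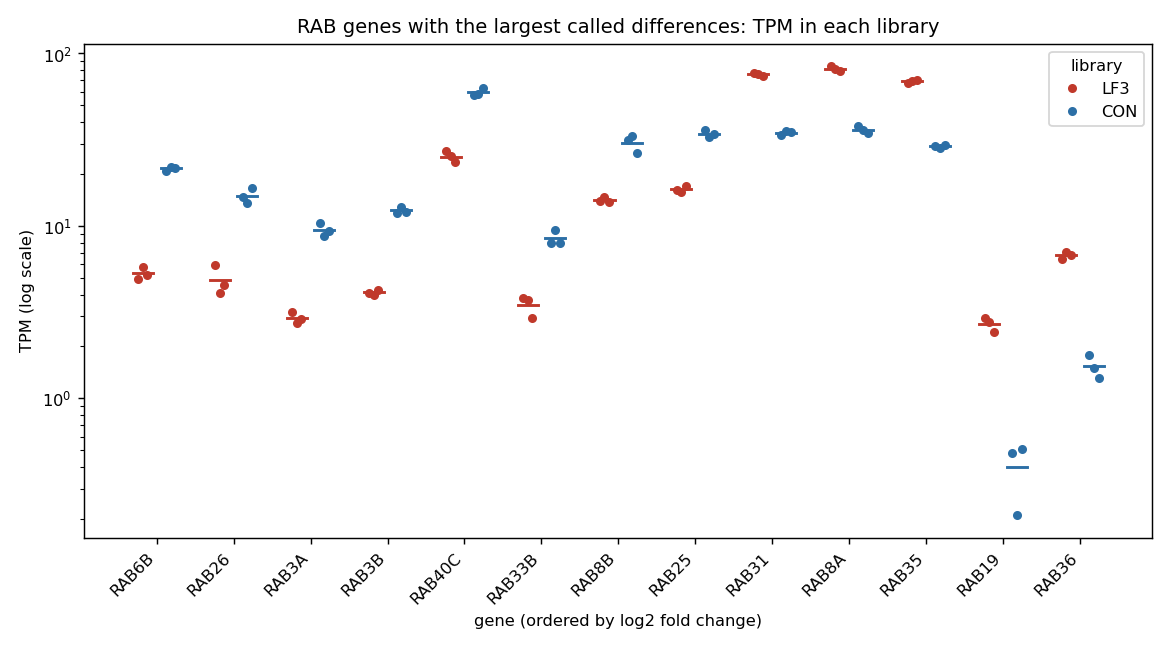
TPM on a log scale in each library for the 13 RAB genes called with a log2 fold change of at least 1 in size, LF3 in red left of CON in blue, with bars at the group means. No gene has overlapping groups, which the choice by call and size favours. RAB36 stood at 6.42 to 7.08 TPM in LF3 and 1.32 to 1.78 TPM in CON.

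Of 10 ER-Golgi members tested, 2 were higher, 6 lower and 2 not called as deposited, beside 32.3% of all genes lower. After rescaling 0 were higher and 9 lower, beside 42.7% of all genes lower. The median log2 fold change was -0.44 as deposited and -0.68 after rescaling. RAB1A, which directs COPII vesicles from the ER to the Golgi, stood at 195, 191 and 180.0 TPM in LF3 and at 374, 368 and 331 TPM in CON. All LF3 libraries lay below all CON libraries, with a log2 fold change of -0.92 ± 0.050 (limma adjusted p = 1.78e-08). Its paralog RAB1B stood at 423, 408 and 414 TPM in LF3 and at 343, 347 and 348 TPM in CON. Here the LF3 libraries were the higher ones, by 0.26 ± 0.030, a value close to the median of all genes, and the difference became -0.012 after rescaling. The pair together summed to 603 ± 12.7 TPM in LF3 and 704 ± 21.2 TPM in CON, and RAB1A's part of that sum was 31.2 ± 0.817% in LF3 and 50.8 ± 1.79% in CON.

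RAB6A, which carries retrograde traffic through the Golgi back to the ER, stood at 109, 110.0 and 95.8 TPM in LF3 and at 190.2, 199 and 181 TPM in CON. The groups were well apart, at -0.85 ± 0.057 on the log2 scale. RAB6B, a paralog known mainly from brain, had 4.95, 5.74 and 5.22 TPM in LF3 and 20.9, 22.0 and 21.7 TPM in CON. That was the largest fall in the family, a 4.07-fold lower mean in LF3 and a log2 fold change of -1.84 ± 0.070 (limma adjusted p = 9.43e-10). Exons of RAB6B overlap those of SRPRB on the opposite strand in GENCODE v29, and SRPRB was higher in LF3, by 0.63 ± 0.045; counting by strand was not given in the sources used here, and with unstranded counting such genes cannot be told apart. RAB33B, a Golgi member that binds the autophagy factor ATG16L1, had 3.84, 3.70 and 2.94 TPM in LF3 and 7.97, 9.46 and 7.99 TPM in CON, with a log2 fold change of -1.08 ± 0.10.

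RAB2A and RAB2B, which act at the ER-Golgi intermediate compartment, differed from each other. RAB2B had 22.8, 22.4 and 20.8 TPM in LF3 and 33.9, 36.1 and 33.4 TPM in CON, with a log2 fold change of -0.63 ± 0.057. RAB2A had 63.2, 65.9 and 60.5 TPM in LF3 and 54.2, 58.5 and 56.3 TPM in CON, or 0.16 ± 0.049 as deposited, but -0.11 after rescaling and -0.21 after quantile normalization, both called lower. RAB30, a Golgi member, was lower by a small amount (-0.26 ± 0.087); leaving out CON replicate 2 ended the call (-0.21, limma adjusted p = 0.0733; 0.000216 to 0.0733 over its alternatives). RAB18, found on the ER and lipid droplets, and RAB43 were not called as deposited, at -0.12 ± 0.068 and -0.063 ± 0.11, and both were called lower after rescaling. RAB43 shares exons with the readthrough gene ISY1-RAB43.

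Endosome and recycling members went both ways. Of 19 tested, 6 were higher, 10 lower and 3 not called, beside 53.2% of all genes higher and 32.3% lower, and 4 were higher and 12 lower after rescaling, beside 42.6% and 42.7%, with a median of -0.20 as deposited. The RAB5 proteins drive the fusion of early endosomes, and their 3 genes moved apart. RAB5C stood at 312, 306 and 311 TPM in LF3 and at 165, 163 and 166 TPM in CON, higher by 0.91 ± 0.032 (limma adjusted p = 4.84e-10). RAB5B stood at 70.5, 72.3 and 68.1 TPM in LF3 and at 135, 143 and 139.9 TPM in CON, lower by a log2 fold change of -0.98 ± 0.041. RAB5A stood at 27.3, 27.6 and 26.1 TPM in LF3 and at 45.3, 47.5 and 40.7 TPM in CON, with -0.70 ± 0.062. No library of one group reached the other group in any of the 3 genes. RAB5C shares exons with AC099811.2, a protein-coding gene on the same strand in GENCODE v29. The sum of the 3 genes was 407 ± 2.53 TPM in LF3 and 349 ± 4.6 TPM in CON, and RAB5C's part of it was 76.1 ± 0.676% in LF3 and 47.3 ± 0.956% in CON.

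The upstream sequence of these 3 genes is shown because they share a function and moved in opposite directions. Each line is the 250 bases before the start of the gene in RefSeq on GRCh38.p14, 5′ to 3′ on the gene's strand. The places are chr3:19946847-19947096, + strand for RAB5A, chr12:55973699-55973948, + strand for the first of the 2 starts listed for RAB5B and chr17:42154990-42155239, - strand for RAB5C. Capitals mark the E-box CACGTG, the CCAAT box and the GC box GGGCGG on either strand; these motifs did not overlap each other here, though GC boxes can overlap other GC boxes.
RAB5A: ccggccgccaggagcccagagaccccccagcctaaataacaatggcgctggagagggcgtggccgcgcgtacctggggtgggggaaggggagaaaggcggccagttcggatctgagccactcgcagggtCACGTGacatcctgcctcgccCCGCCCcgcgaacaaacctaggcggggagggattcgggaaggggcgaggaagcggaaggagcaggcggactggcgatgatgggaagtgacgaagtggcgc
RAB5B: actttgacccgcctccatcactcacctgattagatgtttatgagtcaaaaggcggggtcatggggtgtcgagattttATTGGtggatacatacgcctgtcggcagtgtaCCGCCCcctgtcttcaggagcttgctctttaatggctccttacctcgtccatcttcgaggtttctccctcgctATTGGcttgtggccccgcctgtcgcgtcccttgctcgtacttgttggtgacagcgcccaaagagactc
RAB5C: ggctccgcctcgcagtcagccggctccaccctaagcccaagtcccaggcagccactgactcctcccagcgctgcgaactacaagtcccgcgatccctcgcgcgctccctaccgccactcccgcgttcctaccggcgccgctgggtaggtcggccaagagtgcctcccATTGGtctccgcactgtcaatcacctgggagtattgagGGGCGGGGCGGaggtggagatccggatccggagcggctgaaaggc
The RAB5A stretch held 1 E-box and 1 GC box, the RAB5B stretch 2 CCAAT boxes and 1 GC box, and the RAB5C stretch 1 CCAAT box and 2 GC boxes that overlap. Their GC content was 67.6% for RAB5A, 54.0% for RAB5B and 67.6% for RAB5C. Of the 62 members 49 were found in the promoter table. The E-box was present upstream of 5 of these (10.2%: RAB4A, RAB5A, RAB21, RAB24 and RAB31) and of 7.73% of all 27305 genes in that table. A CCAAT box was present in 15 members (30.6%) and 37.0% of all genes, and a GC box in 40 members (81.6%) and 46.2% of all genes. These backgrounds were not limited to genes expressed here, whereas 43 of the 49 matched members averaged at least 1 TPM. The difference for the GC box is therefore not read as a trait of RAB genes. Among matched members called under all 3 scalings, a GC box stood upstream of 10 of 11 higher and 18 of 20 lower ones, and a CCAAT box upstream of 4 and 7 of them. A match describes letters only and names no factor.

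RAB31 and RAB22A, which belong to the same subfamily and act between the trans-Golgi network, early endosomes and recycling, also went apart. RAB31 had 76.9, 75.7 and 74.2 TPM in LF3 and 33.6, 35.5 and 35.0 TPM in CON, with a log2 fold change of 1.10 ± 0.044. RAB22A had 19.6, 19.8 and 18.8 TPM in LF3 and 28.0, 28.9 and 26.4 TPM in CON, with -0.50 ± 0.057. RAB31 thus made up 79.6 ± 0.276% of the pair in LF3 and 55.6 ± 1.30% in CON. RAB35, which returns cargo from endosomes to the surface by a fast route, had 67.7, 69.5 and 69.9 TPM in LF3 and 29.1, 28.3 and 29.5 TPM in CON. The LF3 mean was 2.38-fold the CON mean, and the log2 fold change of 1.22 ± 0.044 was the highest of the route. RAB10, known from recycling and from GLUT4 vesicles, was higher as well, at 96.0 ± 5.29 TPM in LF3 and 57.0 ± 0.539 TPM in CON (0.74 ± 0.048).

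In the RAB11 subfamily, known for slow recycling, RAB25 and RAB11B transcripts were lower. RAB25, its epithelial member, had 16.2, 15.8 and 17.2 TPM in LF3 and 35.9, 32.7 and 33.9 TPM in CON, which gave -1.02 ± 0.059. RAB11B stood at 63.4 ± 1.64 TPM in LF3 and 103 ± 6.90 TPM in CON (-0.69 ± 0.052), and an antisense gene, RAB11B-AS1, overlaps its exons. RAB11A had 45.1, 47.0 and 42.8 TPM in LF3 and 44.3, 46.0 and 40.8 TPM in CON; the groups overlapped and it was not called (0.040 ± 0.057), but it was called lower after rescaling (-0.23) and quantile normalization (-0.32). The 3 genes summed to 125 ± 0.584 TPM in LF3 and 181 ± 4.33 TPM in CON.

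RAB13, which acts in the recycling of tight junction proteins, had 96.1, 98.8 and 93.9 TPM in LF3 and 139, 125 and 134 TPM in CON, a log2 fold change of -0.46 ± 0.046. RAB14, which works between the Golgi and endosomes, had 103, 108 and 100.2 TPM in LF3 and 120.4, 130.4 and 119 TPM in CON, with -0.24 ± 0.048. Both pairs of groups stayed apart. Smaller falls were called for RAB4A (-0.21 ± 0.055) and RAB4B (-0.33 ± 0.064), members of the fast recycling step, and for RAB9A (-0.20 ± 0.059), which links late endosomes to the trans-Golgi network; RAB4B shares exons with MIA-RAB4B and RAB4B-EGLN2. RAB17, an epithelial member of apical recycling, and RAB20, known to be induced by low oxygen, were higher as deposited (0.37 ± 0.057 and 0.38 ± 0.085) and not called after rescaling (0.11 and 0.12). RAB21 was not called as deposited (0.093 ± 0.071) and was lower after rescaling (-0.16). RAB15 was not called (0.22 ± 0.12) and passed the threshold without LF3 replicate 1 (0.33) and after quantile normalization (0.44).

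Among tested secretory members, 5 (62.5%) were called with a log2 fold change of at least 1 in size, against 31.9% of all genes. Of 8 tested, 2 were higher, 5 lower and 1 not called, beside 53.2% of all genes higher and 32.3% lower, and these counts were the same after rescaling; the median log2 fold change was -0.85 as deposited. RAB3 proteins prime vesicles for regulated exocytosis. RAB3A had 3.17, 2.73 and 2.89 TPM in LF3 and 10.4, 8.79 and 9.31 TPM in CON, lower by a log2 fold change of -1.42 ± 0.088. RAB3B had 4.11, 3.98 and 4.26 TPM in LF3 and 11.9, 12.9 and 12.0 TPM in CON, with -1.38 ± 0.072. RAB3D, the most abundant of them, was lower too, at 10.9 ± 1.01 TPM in LF3 and 17.6 ± 0.946 TPM in CON (-0.65 ± 0.078). MPV17L2, whose exons overlap RAB3A on the opposite strand, was higher in LF3, by 1.86 ± 0.058. RAB26, a member of secretory granules, had 5.93, 4.06 and 4.54 TPM in LF3 and 14.7, 13.6 and 16.6 TPM in CON, which gave -1.46 ± 0.12. All 4 genes had LF3 libraries below every CON library.

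RAB8A and RAB8B carry cargo from the trans-Golgi network to the plasma membrane and the cilium, and their shares of the pair shifted. RAB8A had 84.1, 80.8 and 79.4 TPM in LF3 and 38.2, 35.8 and 34.7 TPM in CON, a log2 fold change of 1.15 ± 0.050 (limma adjusted p = 2.59e-09). RAB8B had 13.95, 14.6 and 13.7 TPM in LF3 and 31.4, 33.3 and 26.5 TPM in CON, a log2 fold change of -1.05 ± 0.080 (limma adjusted p = 2.75e-07). RAB8A's part of the pair was 85.2 ± 0.556% in LF3 and 54.5 ± 2.42% in CON, and the pair summed to 95.5 ± 2.5 TPM in LF3 and 66.6 ± 4.70 TPM in CON. HSH2D, a neighbour that shares exons with RAB8A on the same strand, was lower in LF3, by -0.76 ± 0.079. Their upstream stretches are set out in the same way, since this pair had the largest shift in ratio among the paralogs, with RAB8A at chr19:16111639-16111888, + strand and RAB8B at chr15:63189356-63189605, + strand, both on GRCh38.p14.
RAB8A: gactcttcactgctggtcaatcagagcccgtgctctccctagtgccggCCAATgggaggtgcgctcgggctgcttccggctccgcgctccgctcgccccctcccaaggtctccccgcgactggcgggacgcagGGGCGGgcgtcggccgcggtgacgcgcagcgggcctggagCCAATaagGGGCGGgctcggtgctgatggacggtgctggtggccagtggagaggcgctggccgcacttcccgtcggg
RAB8B: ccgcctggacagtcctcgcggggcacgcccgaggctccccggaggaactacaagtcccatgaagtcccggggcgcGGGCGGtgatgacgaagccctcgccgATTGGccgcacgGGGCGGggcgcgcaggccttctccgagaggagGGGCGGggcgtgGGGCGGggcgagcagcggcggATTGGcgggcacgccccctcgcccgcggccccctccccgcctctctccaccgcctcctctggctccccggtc
The RAB8A stretch held 2 CCAAT boxes and 2 GC boxes, and the RAB8B stretch 2 CCAAT boxes and 4 GC boxes. Neither held an E-box, and their GC content was 72.4% for RAB8A and 77.2% for RAB8B.

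RAB27A, which docks secretory lysosomes and the endosomes that release exosomes, had 17.5, 17.9 and 15.8 TPM in LF3 and 12.3, 12.3 and 10.6 TPM in CON. It was higher by 0.51 ± 0.077, and by 0.25 after rescaling. Its paralog RAB27B had 4.58, 3.76 and 3.10 TPM in LF3 and 2.97, 3.63 and 2.38 TPM in CON; the groups overlapped and it was not called (0.27 ± 0.14). RAB27B passed the threshold without CON replicate 2 (0.38), without LF3 replicate 3 (0.38) and with the replicate number as a block (limma adjusted p = 0.0449; 0.0291 to 0.682 over its alternatives). The ratio of RAB27A to RAB27B overlapped between the groups.

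Autophagy and lysosome members had calls in both directions, and several depended on the scaling. Of 7 tested, 5 were higher and 2 lower as deposited, where 85.5% of all genes were called, and 2 were higher, 3 lower and 2 not called after rescaling, where 85.3% were. RAB7A, which brings late endosomes and autophagosomes to lysosomes, had 335, 337 and 331 TPM in LF3 and 314, 319.8 and 305 TPM in CON. Its log2 fold change of 0.094 ± 0.032 became -0.18 after rescaling and -0.12 after quantile normalization, and the call as higher ended on leaving out CON replicate 3, LF3 replicate 1 or LF3 replicate 2 while its size stayed near (0.076, 0.092 and 0.088; limma adjusted p = 0.0523, 0.0519 and 0.0632; 0.000764 to 0.0871 over its alternatives, the highest without a trend). RAB12, known from transport to lysosomes, had 102, 99.7 and 99.8 TPM in LF3 and 88.9, 94.3 and 84.0 TPM in CON, or 0.17 ± 0.047 as deposited and -0.099 after rescaling. RAB7B, a late endosome member, had 2.12, 1.21 and 1.14 TPM in LF3 and 0.770, 0.540 and 1.22 TPM in CON, so it passed the filter only through LF3, and it was called higher (0.43 ± 0.17) although the groups overlapped. Leaving out CON replicate 1, CON replicate 2 or LF3 replicate 1 ended the call (0.41, 0.31 and 0.26; limma adjusted p = 0.0880, 0.143 and 0.161). It also ended after rescaling (0.29), with no filter and without a trend (limma adjusted p = 0.143, 0.0765 and 0.0514; 0.00453 to 0.161 over its alternatives).

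RAB32 and RAB38, partners in building lysosome-related organelles, exchanged order. RAB32 had 88.8, 87.0 and 84.2 TPM in LF3 and 38.0, 45.5 and 46.6 TPM in CON, higher by 0.99 ± 0.070. RAB38 had 55.2, 53.6 and 54.7 TPM in LF3 and 88.4, 83.1 and 86.3 TPM in CON, with a log2 fold change of -0.65 ± 0.042. RAB32 was 1.59 ± 0.0449-fold the level of RAB38 in LF3 and 0.506 ± 0.0655-fold in CON. RAB29, which recruits the kinase LRRK2 to membranes, was higher at 24.9 ± 2.06 TPM in LF3 and 16.9 ± 0.570 TPM in CON (0.53 ± 0.068). RAB24, an atypical member linked to the clearance of autophagosomes, was lower at 12.6 ± 0.397 TPM in LF3 and 24.8 ± 2.69 TPM in CON (-0.93 ± 0.078); it shares exons with MXD3, which was not called (-0.22 ± 0.12).

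Of 8 tested members placed in none of these routes, 5 were higher, 1 lower and 2 not called, and 4 were higher and 2 lower after rescaling. The count of higher members was near the background of 53.2% as deposited and 42.6% after rescaling. RAB34, which acts in the formation of cilia and in placing lysosomes, was the most abundant, with 194, 184 and 191 TPM in LF3 and 117, 111 and 114 TPM in CON (0.73 ± 0.038). RAB36 had 6.42, 7.08 and 6.79 TPM in LF3 and 1.78, 1.5 and 1.32 TPM in CON, a 4.41-fold ratio of means and, at 1.62 ± 0.095, the highest log2 fold change in the family on the log2(TPM + 1) scale. RAB19 had 2.92, 2.78 and 2.44 TPM in LF3 and 0.480, 0.210 and 0.510 TPM in CON, so it passed the filter only through the LF3 libraries (1.41 ± 0.12, with a ratio of means of 6.78, above that of RAB36); its exons overlap SLC37A3 on the opposite strand, which was higher by 0.35 ± 0.053. RAB40C, a SOCS-box member that serves a cullin ubiquitin ligase, fell to 27.0, 25.4 and 23.4 TPM in LF3, against 57.3, 58.5 and 62.7 TPM in CON, a log2 fold change of -1.20 ± 0.061. RAB28, a ciliary member, had 15.4, 15.1 and 15.4 TPM in LF3 and 12.6, 11.6 and 10.1 TPM in CON (0.39 ± 0.078, and 0.14 without a call after rescaling). RAB23, a ciliary repressor of Hedgehog signalling, was higher at 10.2 ± 0.340 TPM in LF3 and 5.18 ± 0.599 TPM in CON (0.86 ± 0.085), and BAG2, which overlaps its exons on the opposite strand, was higher by 2.25 ± 0.070. RAB40B was not called (-0.091 ± 0.095) and was lower after rescaling (-0.32), and RAB42 was not called (0.15 ± 0.15) but passed without CON replicate 3 (0.32).

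The 10 members under the filter were RAB3C, RAB6C, RAB6D, RAB9B, RAB33A, RAB37, RAB39B, RAB40A, RAB41 and RAB44, and none exceeded 1.46 TPM in any library. RAB6C and RAB6D are retrogenes of RAB6A, so their values are uncertain. RAB39B was listed at 0 in the 3 LF3 libraries and at 0.320, 0.170 and 0.360 TPM in CON. RAB37 stood at 0.0400, 0.0900 and 0 TPM in LF3 and at 0.270, 0.490 and 0.460 TPM in CON. Of the others, RAB40A, RAB41 and RAB44 also lay lower in LF3 without overlap, and RAB9B lay higher without overlap. The groups overlapped for RAB3C, RAB6C, RAB6D and RAB33A. At such levels no fold change is given. Of the 62 members, 10 have exons that overlap another gene on the same strand and 26 one on the opposite strand, so their values are uncertain where the counting could split or share reads; besides those named above they include RAB1A with CEP68, RAB2B with TOX4, RAB3D with TMEM205, RAB4A with SPHAR, RAB27A with PIGBOS1 and RAB40C with WFIKKN1.

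Close relatives were compared within each library, since the ratio of a pair barely depends on how libraries are scaled. Of 20 pairs listed, 17 had both genes tested, and in 14 of them the log2 ratio did not overlap between groups. For TPM of single genes that share was 86.2%, an unlike measure, and no share was taken for ratios of other gene pairs. An exact permutation test of 3 libraries against 3 gave p = 0.1 for each of the 14, the smallest that it can give (0.121 after Benjamini-Hochberg adjustment over the 17 pairs), so no pair could pass 0.05. In 7 pairs the genes were called in opposite directions, and in 5 pairs they also were after rescaling: RAB5A and RAB5C, RAB5B and RAB5C, RAB8A and RAB8B, RAB22A and RAB31, and RAB32 and RAB38. RAB5C is in both of the RAB5 pairs listed. Among all genes, 53.2% were called higher and 32.3% lower (42.6% and 42.7% after rescaling), so unrelated genes often have opposite calls too. How often they do was not counted, so these counts are not read as a trait of paralogs. LF3 minus CON on the log2 ratio scale was 2.20 for RAB8A over RAB8B, -1.88 for RAB5B over RAB5C, 1.64 for RAB32 over RAB38, -1.604 for RAB5A over RAB5C and -1.6003 for RAB22A over RAB31. It was -1.18 for RAB1A over RAB1B, where the mean log2 ratio was -1.13 ± 0.055 in LF3 and 0.047 ± 0.10 in CON. Groups overlapped for RAB4A over RAB4B, RAB7A over RAB7B and RAB27A over RAB27B.

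**Figure D3:**
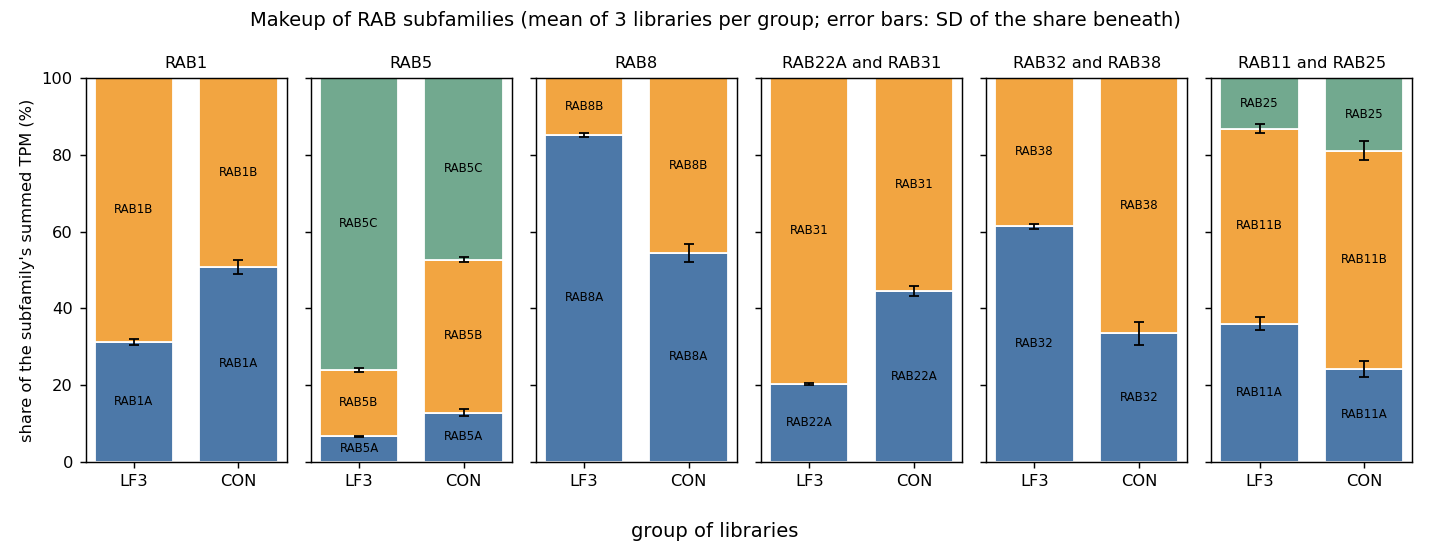
Percent of each subfamily's summed TPM held by its members, as means of 3 libraries in LF3 (left bar) and CON (right bar), with error bars for the SD of the share beneath. RAB5C takes 76.1% of the RAB5 sum in LF3 and 47.3% in CON, and RAB8A 85.2% of the RAB8 pair in LF3 and 54.5% in CON.

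The makeup of the whole family by route was described by shares of the summed RAB TPM, which do not depend on scaling between libraries. ER-Golgi genes held 28.0, 27.9 and 27.6% of RAB transcripts in LF3 and 34.6, 34.8 and 33.7% in CON, a difference of -6.52 percentage points. A few abundant genes weigh most in it. RAB1A held 6.31% in LF3 and 11.7% in CON, RAB6A 3.51% and 6.23%, and RAB1B, which went the other way, 13.9% and 11.4%. Endosome and recycling genes held 38.1, 38.5 and 38.4% in LF3 and 35.6, 35.5 and 36.3% in CON, 2.55 points more. RAB5C alone held 10.4 ± 0.221% in LF3 and 5.41 ± 0.121% in CON. Of the 19 tested members of that route, 6 were called higher and 10 lower, so its share does not describe most of them. Autophagy and lysosome genes held 20.6 ± 0.118% in LF3 and 18.8 ± 0.0896% in CON (SD, n = 3 each). Secretory genes held 4.66 ± 0.111% in LF3 and 4.47 ± 0.117% in CON, a difference of 0.19 points. The remaining genes held 8.60 ± 0.200% in LF3 and 6.55 ± 0.169% in CON, most of it RAB34. The groups did not overlap in any of the 5 shares, and with 3 libraries a group no test of a share could pass 0.05. The shares are parts of 1 whole, so a lower ER-Golgi share raises the others, and they are not separate results. The summed TPM of secretory genes did overlap, at 133 to 145 TPM in LF3 and 130 to 139 TPM in CON.

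**Figure D4:**
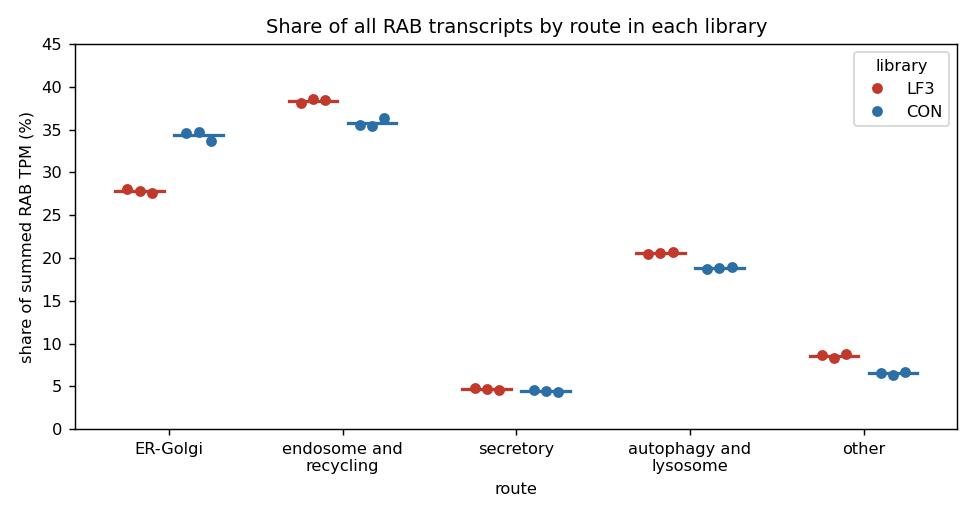
Share of the summed TPM of all 62 RAB genes held by each route in each library, LF3 in red left of CON in blue, with bars at the means. The ER-Golgi share is lower in LF3 (27.6 to 28.0%) than in CON (33.7 to 34.8%), and the other 4 shares lie slightly above those of CON.

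The proteins that prenylate, escort, activate and inactivate RABs were followed in 8 lists, of whose 162 genes 150 were tested; 72 were higher and 55 lower (53 and 72 after rescaling), so 84.7% were called, next to 85.5% of all genes. The counts of each list stand beside 53.2% of all genes higher and 32.3% lower as deposited, and 42.6% and 42.7% after rescaling. Among the 8 genes of the GDI, escort and prenylation list, 5 were higher and 2 lower (5 and 3 after rescaling). GDI2, which extracts inactive RABs from membranes, was higher, at 167 ± 4.42 TPM in LF3 and 101 ± 3.54 TPM in CON (0.72 ± 0.041). It was named outside the rule, after its value was seen, and does not stand for GDI transcripts as a whole. RABAC1, the prenylated RAB acceptor of Golgi and endosome membranes, had the largest fall of the list, to 94.5 ± 7.95 TPM in LF3, against 292 ± 4.19 TPM in CON (-1.62 ± 0.054). The escort protein genes CHM and CHML were higher, by 0.84 ± 0.10 and 0.77 ± 0.11. RABGGTA, the alpha subunit of the RAB geranylgeranyl transferase, was higher (0.50 ± 0.074) and the beta subunit RABGGTB was not called (-0.00091 ± 0.054), though it was called lower after rescaling (-0.27).

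Of 40 exchange factors tested, 18 were higher and 16 lower (13 and 20 after rescaling), and the genes named here are from the higher ones only. MON1A, which with CCZ1 activates RAB7, stood at 5.22 ± 0.509 TPM in LF3 and 0.713 ± 0.151 TPM in CON (1.86 ± 0.11), so it passed the filter only through the LF3 libraries, and CCZ1B, a near-identical copy of CCZ1 whose reads may be shared with it, was higher by 1.53 ± 0.052. RIN3, an activator of RAB5-type proteins, was higher by 1.65 ± 0.094. TRAPP subunits, which form the exchange factor complexes of RAB1 and RAB11, had 10 of 14 higher and 2 lower (8 and 3 after rescaling). TRAPPC3 reached 186 ± 4.02 TPM in LF3, against 65.7 ± 2.78 TPM in CON (1.49 ± 0.042), and TRAPPC13, TRAPPC12 and TRAPPC10 had 1.41 ± 0.081, 0.80 ± 0.11 and 0.68 ± 0.068. GTPase-activating proteins had 17 of 39 higher and 16 lower (13 and 22 after rescaling). TBC1D30, known to act on RAB8, stood at 4.98 ± 0.262 TPM in LF3 and 0.980 ± 0.0721 TPM in CON (1.595 ± 0.090), so it too passed the filter only through LF3, while TBC1D8B (-1.69 ± 0.077), GRTP1 (-1.34 ± 0.095) and TBC1D32 (-1.22 ± 0.078) were lower.

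Of 7 effectors at the Golgi, 1 was higher and 5 lower (0 and 6 after rescaling), beside 32.3% of all genes lower as deposited and 42.7% after rescaling. GOLGA2, the golgin GM130, stood at 46.0 ± 1.33 TPM in LF3 and 106 ± 3.09 TPM in CON (-1.18 ± 0.043). GOLGA5 (-1.18 ± 0.063), GCC2 (-1.01 ± 0.099) and USO1 (-0.86 ± 0.074), a tether bound by RAB1, were lower as well. Endosome and recycling effectors had 12 of 20 higher and 6 lower (10 and 7 after rescaling). RABEP1, the RAB5 and RAB4 effector rabaptin-5, stood at 65.7 ± 4.75 TPM in LF3 and 25.5 ± 1.11 TPM in CON (1.33 ± 0.061), MICALL1 had 1.17 ± 0.067, and MYO5B, the motor of RAB11 vesicles, had -1.04 ± 0.073. MICAL1 had -1.70 ± 0.077. Of 11 secretory effectors, 5 were higher and 6 lower (2 and 6 after rescaling); the motor gene MYO5C (1.87 ± 0.087) and the exocyst subunit EXOC6 (1.21 ± 0.086) were higher, and the RAB27 effectors SYTL1 (-1.02 ± 0.084) and UNC13D (-0.98 ± 0.089) lower. Late endosome and lysosome effectors had 4 of 11 higher and 2 lower (2 and 5 after rescaling). Thus 54.5% were called as deposited, next to 85.5% of all genes, and 63.6% after rescaling, next to 85.3%. RILPL2 had 0.81 ± 0.052, the RAB7 effectors FYCO1 and PLEKHM1 had 0.49 ± 0.075 and -0.40 ± 0.075, and SPAG9 had -0.50 ± 0.052.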

How the data were processed

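Gene expression was measured by RNA sequencing of 6 libraries (3 LF3, 3 CON) on a BGISEQ500 sequencer, with single-end reads of 50 bases per the labels' protocols. GRCm38.p6, a mouse assembly, is the build that the submitters' processing notes give, with the tools HISAT and Bowtie2, although identifiers and symbols in the table are human. The role of each tool, the annotation, strand use and the treatment of reads shared by paralogs were not given in the sources used here. Deposited values are TPM with 2 decimals that sum to 1000000 per library, so depth is unknown.

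Values were analysed as log2(TPM + 1), which understates changes of low genes, for genes averaging 1 TPM or more, with limma 3.58.1 (R 4.3.3; mean-variance trend, two-sided, Benjamini-Hochberg over 12195 genes, threshold 0.05). The procedure was tested on simulated data in which few genes changed, equally up and down. Most genes were called in the real data, so that test does not bear on the choice of scaling. Alternatives were other pseudocounts, filters, scalings and variance models, a block for replicate number, and each library left out in turn. Libraries of a group shared exact values in 0.320 to 0.541% of tested genes, so all 6 were kept as separate samples. Paralog ratios were compared by two-sided exact permutation; the shares of routes, sums over chosen members, are described without a p. Members, routes, pairs and lists were chosen with earlier results of these data known. Values per library were given for members called with a log2 fold change of at least 1 in size, the 3 most abundant of each route and pairs called in opposite directions, and up to 4 called genes were named for each machinery list (some genes that this rule selects are not reported here); GDI2, the subunits of the transferase, the overlapping genes and the paralogs RAB11A, RAB27B, RAB37 and RAB39B were added after their values were seen. All 62 member identifiers matched RefSeq, whose GRCh38.p14 promoters were searched over 250 bases; exon overlaps are from GENCODE v29.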

Additional observations from a re-analysis of the deposited data

How the results depend on the processing

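Scaling was the choice that moved most. Of RAB genes, 12 were called higher after median-ratio rescaling, against 20 as deposited. By route, ER-Golgi had 0 higher under both scalings, and autophagy and lysosome had 2 higher after rescaling, 3 after quantile normalization (with 4 lower) and 3 without a trend. Leaving out each library gave 3 to 5 higher in that route, the lowest without LF3 replicate 1. The remaining members had 3 higher with a filter of 5 TPM, 2 lower with no filter and 2 lower after rescaling. In the machinery lists, quantile normalization gave 11 exchange factors higher, Golgi effectors had 0 higher with a filter of 5 TPM and after rescaling, secretory effectors had 2 higher under the same settings, and late endosome and lysosome effectors had 2 higher and 5 lower under both scalings. Direction reversed after median-ratio rescaling for RAB1B (-0.012), RAB2A (-0.11), RAB11A (-0.23), RAB21 (-0.16), RAB7A (-0.18) and RAB12 (-0.099), and after quantile normalization for RAB2A (-0.21), RAB11A (-0.32), RAB21 (-0.18), RAB7A (-0.12) and RAB12 (-0.15). With a pseudocount of 0.1 the log2 ratio difference became -0.97 for RAB3A over RAB3D, -0.86 for RAB3B over RAB3D, 1.15 for RAB6A over RAB6B and -0.67 for RAB7A over RAB7B. Beyond the rescaling itself, the causes of these shifts were not tested.

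The replicate numbers were not taken to pair the libraries, since no label says that they do. Deviations from the group means correlated at 0.048, 0.11 and 0.16 between libraries of the same number, which does not settle it. Each LF3 library correlated best with the CON library of its own number, whereas CON replicate 1 correlated best with LF3 replicate 2 (0.074). With the replicate block, 21 RAB genes were higher and 24 lower, and over all genes 6536 and 3986, against 6489 and 3938 without it. TPM keeps no depth, so the precision of low members cannot be stated.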
